A study of Homo sapiens with 6 samples.

Results

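The laminin chains are the subunits of the laminins, the large glycoproteins around which basement membranes are built. The chains described here were LAMA1, LAMA2, LAMA3, LAMA4 and LAMA5 (alpha 1 to alpha 5), LAMB1, LAMB2 and LAMB3 (beta 1 to beta 3) and LAMC1 (gamma 1), 9 of the 19937 genes in the count table, matched by Ensembl identifier. They were selected on values of the same shSQLE against shControl contrast that is described below, so that their fold changes and calls are a description and carry no p-value here. The cells were U2OS, an established human osteosarcoma line. In 3 libraries (shSQLE) the cells stably carried a short hairpin RNA against SQLE, squalene epoxidase, a rate-limiting enzyme of cholesterol synthesis, and in 3 libraries (shControl) they carried a non-targeting scrambled hairpin. Both hairpins sat in the pGIPZ plasmid, were delivered by lentivirus and were followed by puromycin selection, so that all 6 libraries share the vector, the infection and the drug. No sample is from untransduced cells, and the sources used here do not say which of several hairpin targets these cells carried, or whether replicate libraries were grown as separate cultures, so that SDs and p-values measure the spread between these libraries, which may be technical.

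A laminin is a heterotrimer of 1 alpha, 1 beta and 1 gamma chain, cross-shaped in many laminins and named by the numbers of its chains. The chains meet as a coiled coil inside the cell. The beta and gamma chains pair first, and the trimer leaves the cell when an alpha chain joins. The globular domains at the free end of the alpha chain bind cell-surface receptors, chiefly integrins and dystroglycan. In many laminins, though not all, the short arms of the chains polymerize into a sheet that nidogen and perlecan tie to collagen IV. LAMA1 is the alpha chain of early embryonic basement membranes, LAMA2 that of muscle and Schwann cells, LAMA3 that of epithelial anchoring laminins, LAMA4 that of vessels and other mesenchymal tissues, and LAMA5 is the most widespread in adult tissue.

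The promoters of 4 chains are shown because they stand for the contrast in the data: LAMA4 and LAMA5 were lower in shSQLE, whereas LAMB1 and LAMC1 overlapped between the groups and had the most alike profiles of any pair of chains. Each is the 250 bases before the RefSeq gene start on GRCh38.p14, 5′ to 3′ on the gene's own strand, at chr6:112254568-112254817 (− strand) for LAMA4, chr20:62367313-62367562 (− strand) for LAMA5, chr7:108003162-108003411 (− strand) for LAMB1 and chr1:183023170-183023419 (+ strand) for LAMC1. The LAMA4 stretch lies wholly inside the annotated gene, whose outer end is at chr6:112254939. The bases beyond that end were not searched. The LAMB1 stretch lies partly inside its gene, whose outer end is at chr7:108003213. Capitals mark exact matches, on either strand, to any of the 8 motifs searched.
LAMA4: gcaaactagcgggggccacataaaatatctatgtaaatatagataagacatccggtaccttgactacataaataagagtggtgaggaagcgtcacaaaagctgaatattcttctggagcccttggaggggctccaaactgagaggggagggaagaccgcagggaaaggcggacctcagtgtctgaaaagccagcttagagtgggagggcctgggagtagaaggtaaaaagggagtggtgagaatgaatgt
LAMA5: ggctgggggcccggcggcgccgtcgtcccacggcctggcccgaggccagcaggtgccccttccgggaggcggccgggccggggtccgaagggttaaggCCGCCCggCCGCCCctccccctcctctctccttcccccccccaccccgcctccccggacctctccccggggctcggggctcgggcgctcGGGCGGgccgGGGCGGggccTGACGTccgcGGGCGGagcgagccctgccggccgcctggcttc
LAMB1: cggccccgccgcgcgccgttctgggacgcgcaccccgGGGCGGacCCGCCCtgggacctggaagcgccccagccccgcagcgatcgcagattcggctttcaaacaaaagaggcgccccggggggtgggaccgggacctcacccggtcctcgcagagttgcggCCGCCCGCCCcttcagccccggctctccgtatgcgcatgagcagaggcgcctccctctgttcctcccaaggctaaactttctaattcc
LAMC1: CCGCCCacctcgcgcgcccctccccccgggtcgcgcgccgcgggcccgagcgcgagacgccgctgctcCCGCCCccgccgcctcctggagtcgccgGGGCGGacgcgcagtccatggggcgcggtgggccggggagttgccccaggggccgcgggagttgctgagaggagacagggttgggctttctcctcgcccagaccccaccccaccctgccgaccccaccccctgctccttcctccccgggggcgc

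The motifs were the GC box GGGCGG, the CCAAT box CCAAT, the TATA box TATAAA, the AP-1 motif TGANTCA, GGGNNTTCC as 1 form of the NF-kB motif, the STAT motif TTCNNNGAA, the TEAD motif CATTCC and the TGACGT core shared by ATF6, XBP1 and CRE sites. They were searched in the RefSeq windows that run from 250 bases before to 50 bases after each start. Of the 9 chains, 8 had a window (10 windows in all, since LAMB3 had 3, of which 2 overlap); LAMA1 had none. The LAMA4 window, which lies inside the annotated gene rather than at its outer end, held no match to any of the 8 motifs. Its GC content was 51.3%, the lowest of the members' windows, where the median of all 35116 windows was 58.7%. The LAMA5 window, with a GC content of 82.7%, held 5 GC boxes and 1 TGACGT, at position -43 from the start. The LAMB1 window held 4 GC boxes and the LAMC1 window 3, and neither held another of the motifs. A GC box was in 8 of the 10 windows and in 45% of all windows. The AP-1 motif was in the LAMA3 window (2 matches) and in 1 LAMB3 window (1 match), and in 7.71% of all windows. The STAT motif was in the LAMB2 window alone among the members (7.66% of all windows), the CCAAT box in 1 LAMB3 window (34.6%), and the TEAD motif in the LAMA2 window (14%). TATAAA and GGGNNTTCC were in none of the members' windows, against 11.5% and 6.58% of all windows. Only these exact strings were searched, so that other forms of the NF-kB motif, for example longer ones, were not covered. These matches describe the letters and nothing more; no binding was measured.

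Total counts ranged from 12212378 to 14393292 per library, and the share of mitochondrial genes from 5.76% to 7.74%. SQLE itself, the targeted gene, was at 1349, 1867 and 1924 normalized counts in shControl 1, 2 and 3 and at 229, 204 and 219 in shSQLE 1, 2 and 3, a log2 fold change of -2.98 (SE 0.17, adjusted p = 0.000299 in edgeR's quasi-likelihood fit, adjusted by Benjamini-Hochberg over 12450 genes). Of the 7 markers of the osteoblast lineage, VIM, SPARC, RUNX2 and COL1A1 were expressed, SP7 had no count in any library and ALPL lay between 0 and 2.06 normalized counts. COL1A2 lay between 0 and 5.43 in shControl and at 0 in every shSQLE library. The log2 fold change was 0.17 (SE 0.11) for VIM and -0.29 (SE 0.17) for RUNX2, with overlap between the groups, and neither passed the test. COL1A1, a collagen I chain, fell from between 157 and 170 to between 101 and 109 (log2 fold change -0.65, SE 0.14, adjusted p = 0.0452), and SPARC, at 6325 to 6359 in shControl and 5139 to 5388 in shSQLE, did not pass the test (-0.28, SE 0.09, adjusted p = 0.185). The summed level of 5 epithelial markers was 85.0 to 111 normalized counts in shControl and 94.6 to 116 in shSQLE, from EPCAM and CLDN4, and the sums of 4 blood markers and of 4 Schwann cell or muscle markers were at most 13.9 and 10.4 in any library. The 5 endothelial markers summed to 1219 to 1605 in shControl and 1463 to 1570 in shSQLE, nearly all from TIE1, while CDH5, VWF and KDR were at or near 0. PECAM1, the other endothelial marker, was at 10.4, 13.6 and 14.7 in shControl and at 3.92, 5.91 and 2.06 in shSQLE, lower without overlap (log2 fold change -1.67, SE 0.43), and did not pass the test (adjusted p = 0.0933). The library of shControl 1 stood apart from shControl 2 and 3 across the transcriptome: without it, edgeR called 18.3% of genes lower and 15.6% higher in shSQLE, against 2.84% and 0.369% with all 6 libraries, so that each chain is given both ways below.

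All 9 chains passed the filter on low counts, and the log2 fold change, shSQLE over shControl, was below 0 for each of them, from -2.70 (LAMA4) to -0.06 (LAMB1), with a median of -0.40, where the median over all 12450 genes tested was -0.01 and 51.6% of them lay below 0. LAMA3, LAMA4 and LAMA5 were called lower (adjusted p under 0.05), 3 of 9 where 2.84% of all genes tested were called lower; none was called higher, where 0.369% of all genes were, and DESeq2 made the same 3 calls, with 4.56% of all genes lower and 1.30% higher. In 5 of the 9 (LAMA2, LAMA3, LAMA4, LAMA5 and LAMB2) the ranges of the groups did not overlap, with shSQLE lower in each, as in 12.1% of all genes tested. Since the chains were listed for this contrast, nothing is read from these shares. In bulk RNA, fewer cells of a type and less RNA per cell cannot be told apart.

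**Figure D1:**
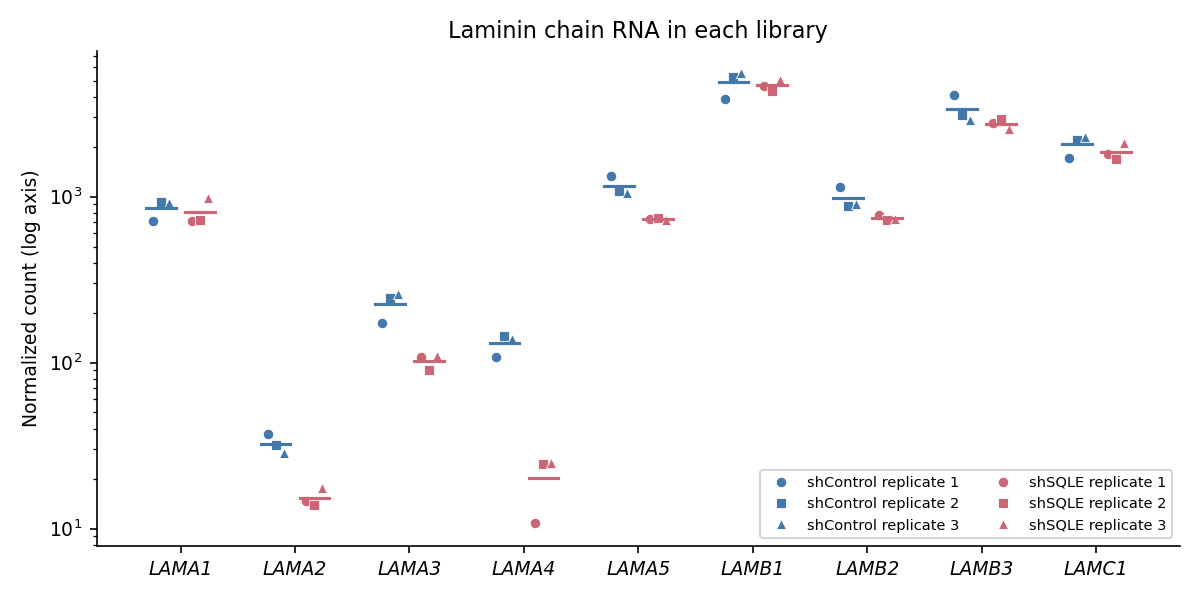
Normalized counts of the 9 laminin chains in each library, on a log axis; points are libraries (circle, square and triangle for replicates 1, 2 and 3) and bars are group means. LAMA4 fell from between 109 and 144 in shControl to between 10.8 and 24.7 in shSQLE, whereas the libraries of LAMA1, LAMB1, LAMB3 and LAMC1 overlap between the groups.

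Of the alpha chains, LAMA4 changed most. LAMA4 (ENSG00000112769, hg38 chr6:112107931-112254939, − strand, 39 exons in its canonical transcript) had raw counts of 94, 159 and 141 in shControl 1, 2 and 3 and of 11, 25 and 24 in shSQLE 1, 2 and 3. As normalized counts, that is counts at the mean effective library size, it was at 109, 144 and 138 against 10.8, 24.6 and 24.7. The groups were far apart, and shSQLE 1 was the lowest of all. The means were 130 ± 19.0 (SD, n = 3) and 20.03 ± 8.02 (SD, n = 3), so that shSQLE held 15.4% of the shControl level, a 6.50-fold difference (log2 fold change -2.70, SE 0.29). Leaving out shControl 1 gave -2.81, and LAMA4 was the only chain called in all 13 alternative fits, between -2.88 and -2.40. With 11 counts in shSQLE 1, the lowest value rests on few reads. The endothelial marker PECAM1 was lower in shSQLE too, with 2 to 15 raw counts per library. TIE1, the most abundant endothelial marker, was at 1202 to 1592 normalized counts in shControl and 1458 to 1563 in shSQLE. These ranges overlapped (log2 fold change 0.14, SE 0.13), and CDH5, VWF and KDR were at or near 0. The part of endothelial RNA in the LAMA4 result was not tested.

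LAMA3 (ENSG00000053747, hg38 chr18:23689453-23956222, + strand, 75 exons) was at 173, 246 and 258 normalized counts in shControl 1, 2 and 3 and at 109, 89.7 and 110 in shSQLE 1, 2 and 3. The groups did not overlap, and shControl 1 was the lowest control. The means were 226 ± 45.9 and 103 ± 11.4 (SD, n = 3 each), 45.5% of the control level (log2 fold change -1.14, SE 0.19, and -1.29 without shControl 1). Of the 6 fits that left out 1 library, it was called only without shControl 1. LAMA3 makes a long and a short product from separate starts, and the RefSeq window used above, at chr18:23872770-23873069, lies inside the gene rather than at its outer end. The counts are per gene and do not separate these products.

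LAMA5 (ENSG00000130702, hg38 chr20:62307955-62367312, − strand, 80 exons) was at 1328, 1083 and 1053 normalized counts in shControl and at 730, 746 and 722 in shSQLE. Its shSQLE libraries were the tightest of any chain, spanning 0.05 on the log2 scale, and all lay below all controls, of which shControl 1 was the highest. The means were 1155 ± 151 and 733 ± 12.4 (SD, n = 3 each), 63.5% of the control level (log2 fold change -0.66, SE 0.13, and -0.54 without shControl 1). Like LAMA3, with 1 library left out, it was called only in the absence of shControl 1. LAMA5 shares 244 exonic bases, 1.71% of its exons, with ADRM1 on the opposite strand, and the use of strand in counting is not given in the sources used here.

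LAMA2 (ENSG00000196569, hg38 chr6:128883138-129516566, + strand, 65 exons) was the scarcest chain, with raw counts of 32, 35 and 29 in shControl and 15, 14 and 17 in shSQLE. As normalized counts these were 37.0, 31.7 and 28.4 against 14.7, 13.8 and 17.5. The groups did not overlap, and shSQLE held 47.4% of the control level (log2 fold change -1.07, SE 0.25, and -0.97 without shControl 1). It was not called with all 6 libraries, and was called without shControl 1 and in the fit with offsets for GC content and length.

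LAMA1 (ENSG00000101680, hg38 chr18:6941742-7117797, − strand, 63 exons) was the alpha chain with no separation between the groups. It was at 712, 929 and 920 normalized counts in shControl and at 714, 724 and 975 in shSQLE. The highest value of all was shSQLE 3, and shControl 1 was lowest. The log2 fold change was -0.09 (SE 0.17), -0.20 without shControl 1, and it was called in none of the 13 alternative fits.

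Of the beta chains, LAMB2 alone did not overlap between the groups. LAMB2 (ENSG00000172037, hg38 chr3:49121114-49133118, − strand, 32 exons), the beta chain of the kidney filter and the neuromuscular junction, was at 1143, 881 and 901 normalized counts in shControl and at 772, 718 and 730 in shSQLE. The log2 fold change was -0.40 (SE 0.13), and -0.27 without shControl 1, the highest control. It was called in 2 of the 13 alternative fits, without shControl 1 and with offsets for GC content and length.

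LAMB1 (ENSG00000091136, hg38 chr7:107923799-108003213, − strand, 34 exons), the common beta chain, was at 3849, 5245 and 5530 normalized counts in shControl and at 4645, 4294 and 5069 in shSQLE. Both shControl 2 and 3 lay above all shSQLE libraries, and shControl 1 lay below all of them. The log2 fold change was -0.06 (SE 0.15), -0.21 without shControl 1 and 0.051 without shControl 3, so that its sign turned with the choice of controls. LAMB1 shares 300 exonic bases, 1.61% of its exons, with DLD on the opposite strand.

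LAMB3 (ENSG00000196878, hg38 chr1:209614870-209652425, − strand, 23 exons), a chain of the epithelial anchoring laminin, was at 4095, 3097 and 2910 normalized counts in shControl and at 2779, 2932 and 2540 in shSQLE. The groups overlapped by a small margin, as shSQLE 2 lay just above shControl 3. The log2 fold change was -0.29 (SE 0.15) and -0.13 without shControl 1, the highest control. Of the 5 epithelial markers, EPCAM and CLDN4 were detected in every library, and CDH1, ESRP1 and GRHL2 were at or near 0. EPCAM was at 49.7 to 53.1 normalized counts in shControl and at 58.6 to 74.4 in shSQLE, higher without overlap (log2 fold change 0.40, SE 0.18). CLDN4 was at 30.7 to 55.4 in shControl and 33.5 to 39.2 in shSQLE, with overlap (-0.23, SE 0.26). Neither passed the test.

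LAMC1 (ENSG00000135862, hg38 chr1:183023420-183145592, + strand, 28 exons), the gamma chain of most laminins, was at 1715, 2178 and 2284 normalized counts in shControl and at 1803, 1683 and 2094 in shSQLE. As for LAMB1, shControl 2 and 3 lay above all shSQLE libraries and shControl 1 lay among them. The log2 fold change was -0.15 (SE 0.14), and -0.26 without shControl 1, the one fit of the 13 alternatives in which it was called.

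The departure of shControl 1 split the chains. Relative to the mean of shControl 2 and 3, on the log2 scale of levels, LAMA3 (-0.54), LAMB1 (-0.48), LAMC1 (-0.38), LAMA1 (-0.37) and LAMA4 (-0.37) were lower in shControl 1, whereas LAMB3 (0.45), LAMB2 (0.36), LAMA5 (0.31) and LAMA2 (0.28) were higher. The median over all genes tested was -0.03. The GC content of the canonical transcript was 66.4% for LAMA5, 60.3% for LAMB2 and 59.5% for LAMB3, and lay between 45.1% and 50.8% for the other 6 chains, of which LAMA2 (46.5%) was the one that was higher in shControl 1. With offsets for GC content and transcript length within each library, 6 chains were called lower (LAMA2, LAMA3, LAMA4, LAMA5, LAMB2 and LAMB3), where 10.4% of all genes were. Without shControl 1 there were also 6 (LAMA2, LAMA3, LAMA4, LAMA5, LAMB2 and LAMC1), where 18.3% of all genes were.

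**Figure D2:**
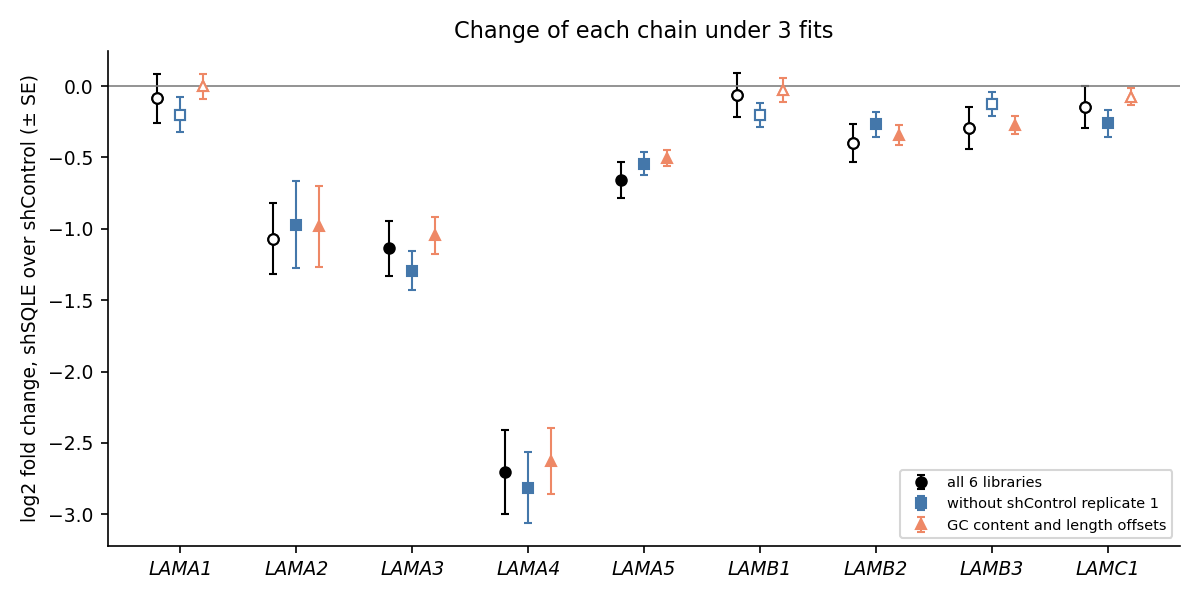
log2 fold change of each chain (shSQLE over shControl) with its SE from edgeR, fitted with all 6 libraries, without shControl replicate 1, and with offsets for GC content and transcript length; filled symbols are called at an adjusted p under 0.05, open ones are not. LAMA3, LAMA4 and LAMA5 are filled in all 3 fits, with LAMA4 between -2.81 and -2.63.

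The chains also grouped by their profiles over the 6 libraries. With each profile of log2 CPM centred on its own mean, LAMB1 and LAMC1 were the most alike pair, with a root mean square difference of 0.06, followed by LAMA1 and LAMC1 (0.08), LAMB2 and LAMB3 (0.10) and LAMA1 and LAMB1 (0.11). LAMA1, LAMB1 and LAMC1 are the chains of laminin 111. The genes tested with the smallest difference were PIGW, GTF3C4 and SNX18 for LAMB1 (0.02 each), COPB1, ENDOD1 and TCF20 for LAMC1 (0.01 to 0.02), and TIFA, HERC2 and GIGYF2 for LAMA1 (0.02 to 0.03). All of these points share the same 6 libraries, and the likeness is a description of these profiles, in which shControl 1 is low for each of the 3 chains.

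To set the chains side by side, levels were expressed per length, as CPM (the count scaled by the effective library size) divided by the exon length of the canonical transcript in kilobases. In shControl, the order was LAMB1 (64.0 ± 11.8, SD, n = 3), LAMB3 (62.2 ± 11.8), LAMC1 (19.3 ± 2.83), LAMB2 (12.7 ± 1.90), LAMA5 (7.49 ± 0.979), LAMA1 (6.57 ± 0.942), LAMA3 (1.57 ± 0.319), LAMA4 (1.34 ± 0.195) and LAMA2 (0.247 ± 0.0329). The ranges of 3 neighbouring pairs overlapped in shControl, namely LAMB1 and LAMB3, LAMA5 and LAMA1, and LAMA3 and LAMA4. With this length, beta 1 and beta 3 stood highest and the alpha chains lowest.

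In shSQLE, the levels per length were 61.3 ± 5.09 (SD, n = 3) for LAMB1, 50.8 ± 3.65 for LAMB3, 17.4 ± 1.97 for LAMC1, 9.64 ± 0.370 for LAMB2, 6.19 ± 1.14 for LAMA1, 4.76 ± 0.0808 for LAMA5, 0.716 ± 0.0791 for LAMA3, 0.205 ± 0.0822 for LAMA4 and 0.117 ± 0.0147 for LAMA2. By group mean, LAMA1 and LAMA5 changed places, and in shSQLE their ranges no longer overlapped. Only shControl 1 put LAMA5 (8.62) above LAMA1 (5.48). LAMA1 was already above LAMA5 in shControl 2 (7.14 and 7.03) and shControl 3 (7.08 and 6.83). With the union of all exons as the length, LAMA1 and LAMA5 did not change places by group mean, as LAMA5 was at 3.80 and LAMA1 at 3.76 in shSQLE. With that length, LAMB1 (19.4 in shControl) was below LAMB3 (53.7). The only neighbours whose ranges overlapped in shSQLE were LAMA4 and LAMA2, since LAMA4 in shSQLE 1 (0.111) was at the level of LAMA2 (0.106 to 0.134).

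Laminin trimers were related to their chains at the RNA level. The 10 trimers considered were laminin 111, 121, 211, 221, 311, 321, 411, 421, 511 and 521, which take alpha 1 to alpha 5 with beta 1 or beta 2 and gamma 1. In each of them, and in all 6 libraries, the alpha chain had the lowest level per length of the 3 chains, also with the coding length, the longest transcript or the union of all exons as the length. The lowest-chain level of a trimer was therefore that of its alpha chain. For laminin 411 and 421, the laminins of vessel walls, it was 1.11, 1.48 and 1.42 CPM per kb in shControl and 0.111, 0.253 and 0.253 in shSQLE. For laminin 511 and 521, it was 8.62, 7.03 and 6.83 in shControl and 4.74, 4.84 and 4.68 in shSQLE. For laminin 111 and 121, it was 5.48, 7.14 and 7.08 in shControl and 5.49, 5.57 and 7.50 in shSQLE, with overlap between the groups. The trimer of alpha 3 and beta 3 was not set up in this way, because its gamma chain is not analysed here. Alpha 3 was at 0.0159, 0.0299 and 0.0334 of the level of beta 3 in shControl 1, 2 and 3. In shSQLE it was at 0.0147, 0.0115 and 0.0163, so that only shControl 1 overlapped. The canonical length of LAMA3, 10651 bases, was that of its longest transcript. The counts do not separate its long and short products, so that its levels per length depend on the product made. RNA levels do not give the amount of assembled trimer, which was not measured.

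Summed over alpha 1 to alpha 5, the level per length was 16.7, 17.6 and 17.3 CPM per kb in shControl 1, 2 and 3 and 11.2, 11.4 and 13.3 in shSQLE 1, 2 and 3. The groups did not overlap, and shControl 1 lay close to the other controls in this sum. The means were 17.2 ± 0.465 and 11.98 ± 1.18 (SD, n = 3 each). Gamma 1 was at 16.0, 20.4 and 21.4 in shControl and at 16.9, 15.7 and 19.6 in shSQLE, and these ranges overlapped.

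The ratio of summed alpha to gamma 1 was 1.04, 0.864 and 0.812 in shControl and 0.665, 0.724 and 0.681 in shSQLE. Every shSQLE library was below every control, with means of 0.690 ± 0.0304 and 0.906 ± 0.120 (SD, n = 3 each), and of 0.838 in shControl without shControl 1. The size of this ratio depends on the length used, as it was 0.585 in shControl and 0.439 in shSQLE with coding lengths, but under each length the highest shSQLE library was below the lowest control. The ratio of summed beta 1 and beta 2 to gamma 1 was 3.99 ± 0.0766 in shControl and 4.09 ± 0.180 in shSQLE, with overlap. The excess of beta over gamma depends on the length used, since the ratio of beta 1 to gamma 1 was 3.31 in shControl with canonical transcripts, 2.12 with coding lengths and 1.07 with the union of all exons (3.53, 2.27 and 1.14 in shSQLE).

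**Figure D3:**
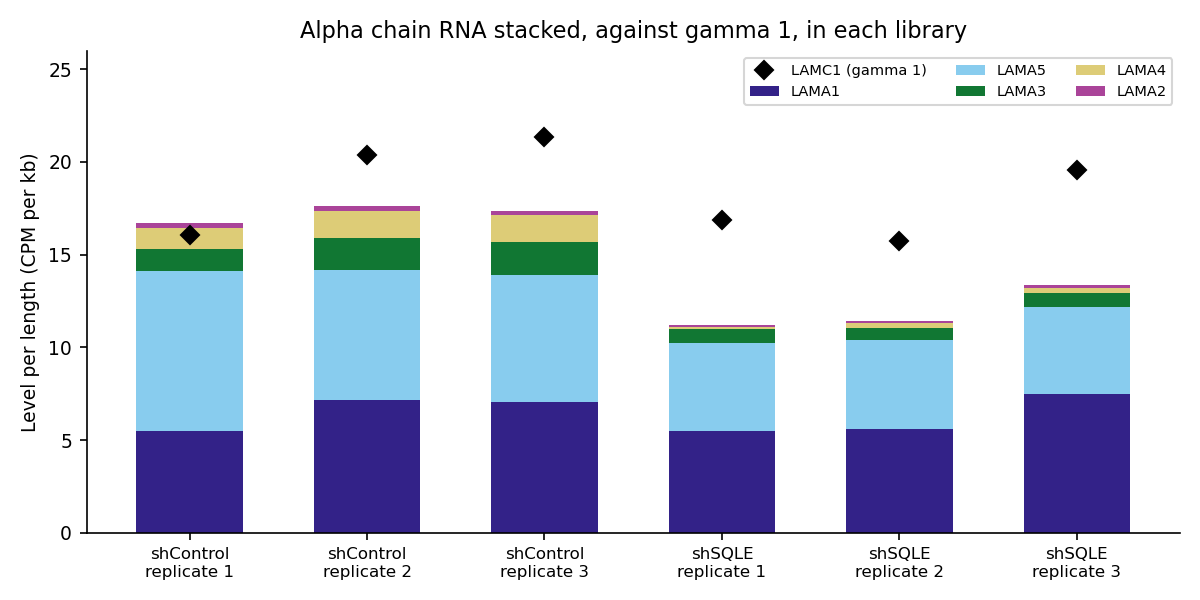
Level per length (CPM per kilobase of canonical transcript) of the 5 alpha chains, stacked, with gamma 1 (LAMC1) as a diamond, in each of the 6 libraries. The stacks reach 16.7 to 17.6 in shControl and 11.2 to 13.3 in shSQLE, and gamma 1 lies above the stack in every library but shControl replicate 1.

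The makeup of the alpha chains differed too. LAMA1 made up 32.8%, 40.6% and 40.8% of the summed alpha level in shControl and 49.0%, 48.9% and 56.2% in shSQLE. LAMA4 made up 6.67%, 8.38% and 8.18% in shControl and 0.986%, 2.22% and 1.90% in shSQLE, and LAMA3 made up 9.10% and 5.99% on average. None of these shares overlapped between the groups, whereas that of LAMA5 did (43.6% ± 6.90 in shControl and 40.0% ± 4.20 in shSQLE). The ratio of alpha 1 to gamma 1 was close in both groups (0.341 ± 0.00970 and 0.354 ± 0.0287), and its ranges overlapped.

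The other genes of the laminin pathway were taken from 6 lists of 63 genes, of which 55 were tested. Of these, 8 were called lower and 1 higher in shSQLE, beside 2.84% and 0.369% of all genes, and the median log2 fold change was -0.15, against -0.01 over all genes. Without shControl 1, 22 were called lower and 9 higher, beside 18.3% and 15.6% of all genes. The lists, like the chains, were chosen with earlier results of these data known, so that nothing is read from these shares. For the genes below, adjusted p-values come from the quasi-likelihood test of edgeR, adjusted by Benjamini-Hochberg over all genes tested.

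Of 13 laminin receptors, 2 fell and none rose, with a median log2 fold change of -0.15. Without shControl 1, 5 were called lower and 3 higher. ITGB4, the integrin beta chain of hemidesmosomes, was at 77.4, 51.5 and 48.1 normalized counts in shControl and at 21.5, 18.7 and 12.3 in shSQLE (log2 fold change -1.73, SE 0.30, adjusted p = 0.0228). ITGA1, the alpha chain of a collagen and laminin receptor, was at 1075, 1889 and 1905 in shControl and at 580, 478 and 612 in shSQLE (log2 fold change -1.55, SE 0.23, adjusted p = 0.0125). The groups did not overlap for either gene. ITGA1 shares its locus with PELO, and ITGB4 overlaps GALK1 on the other strand. The integrin beta chain that partners most of these receptors, ITGB1, had a log2 fold change of 0.06 (SE 0.28). It was -0.50 (SE 0.26) for ITGA6, the alpha chain of the main laminin integrins, and 0.12 (SE 0.10) for DAG1, dystroglycan. The integrin alpha chains ITGA2 (-1.11, SE 0.28) and ITGA3 (-0.41, SE 0.13) were lower without overlap between the groups. DAG1 was higher without overlap, at 1859 to 2049 normalized counts in shControl and 2086 to 2209 in shSQLE. None of these 5 genes passed the test, and 8 of the 13 receptors lay below 0.

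Of 16 basement membrane partners, 13 were tested, 4 fell and none rose, with a median of -0.55 (11 lower and 1 higher without shControl 1). NID2, a nidogen that links laminin to collagen IV, was at 95.8, 127 and 129 normalized counts in shControl and at 48.0, 32.5 and 41.1 in shSQLE (log2 fold change -1.53, SE 0.22, adjusted p = 0.00987). The related COL15A1 (-1.46, SE 0.27, adjusted p = 0.0264) and COL18A1 (-0.75, SE 0.16, adjusted p = 0.0477), collagens of the basement membrane zone, and SMOC1 (-0.55, SE 0.12, adjusted p = 0.0498), a matrix protein of the SPARC family, also fell. The last 2 lay close to the threshold, and SMOC1 was called in 4 and COL18A1 in 6 of 13 alternative fits. For NID1, the other nidogen, the log2 fold change was -0.19 (SE 0.19), and for HSPG2, perlecan, it was 0.31 (SE 0.13). AGRN had -0.42 (SE 0.10). The collagen IV chains had -0.63 (COL4A1, SE 0.20), -0.35 (COL4A2, SE 0.09), -0.61 (COL4A5, SE 0.22) and -0.68 (COL4A6, SE 0.21). None of these passed the test, and 11 of the 13 partners tested lay below 0. HSPG2 was higher without overlap between the groups, and AGRN, COL4A2 and COL4A6 were lower without overlap.

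Of 4 anchoring and hemidesmosome genes, COL7A1, the collagen of anchoring fibrils, fell, from 789, 558 and 575 normalized counts in shControl to 236, 271 and 298 in shSQLE (log2 fold change -1.25, SE 0.18, adjusted p = 0.00989). PLEC, plectin, had -0.41 (SE 0.10, adjusted p = 0.0701). Of 9 proteases that cut laminin, 7 were tested. MMP2, gelatinase A, fell from between 441 and 507 normalized counts to between 182 and 211 (log2 fold change -1.27, SE 0.13, adjusted p = 0.00259). PLAU, urokinase, rose from between 3891 and 4094 to between 6734 and 7423 (log2 fold change 0.81, SE 0.10, adjusted p = 0.00464). MMP2 and PLAU were called in all 13 alternative fits. Of the other 7 list genes called, NID2 lost the call without shSQLE 2 or 3, and ITGA1, ITGB4 and COL7A1 lost it without any one of the shSQLE libraries (ITGB4 also without shControl 2). COL15A1, COL18A1 and SMOC1 kept it, of the fits that left out 1 library, only in the one without shControl 1.

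The remaining lists held no call in this fit. Of 8 netrins and laminin-like proteins, 5 were tested and 0 were called by edgeR, while DESeq2 called 1 lower. Without shControl 1, edgeR called 1 lower and 1 higher. NTN4, a netrin that binds the laminin gamma 1 chain, was at 40.4, 57.0 and 59.8 normalized counts in shControl and 8.81, 25.6 and 23.6 in shSQLE (log2 fold change -1.44, SE 0.36, adjusted p = 0.0895), and NTN1 had 0.31 (SE 0.13, adjusted p = 0.301). Of 13 enzymes that glycosylate dystroglycan, which give it its laminin-binding sugar, 0 were called by edgeR or DESeq2 with all 6 libraries (median 0.07). Without shControl 1, edgeR called 3 of them higher, where 15.6% of all genes were called higher. With the offsets for GC content and length it called 1 higher, where 7.14% of all genes were. With all 6 libraries, the smallest p-values among these enzymes were those of POMGNT2 (0.42, SE 0.18, adjusted p = 0.341) and B4GAT1 (0.26, SE 0.13, adjusted p = 0.411).

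**Figure D4:**
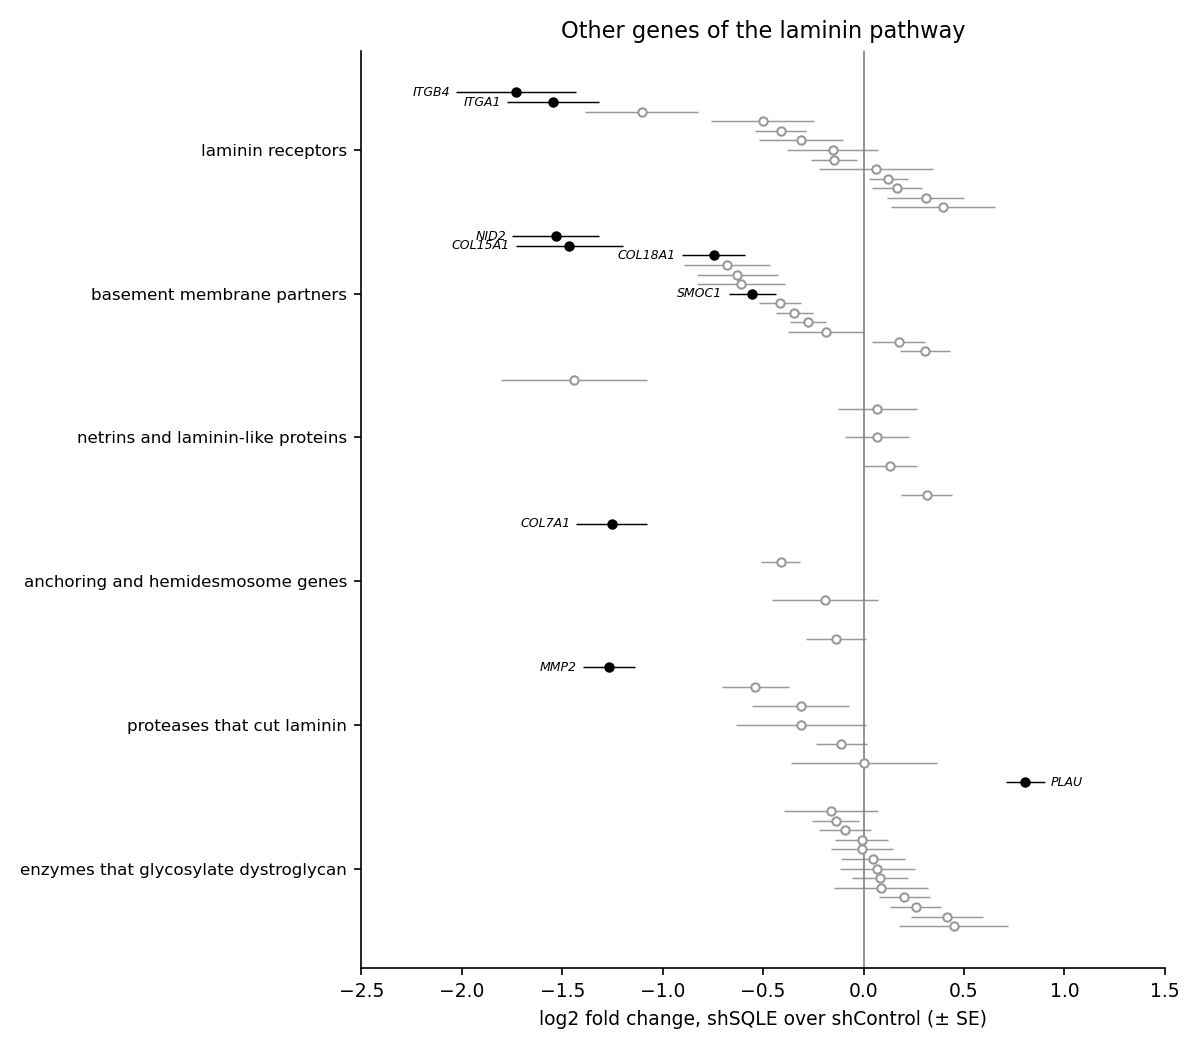
log2 fold change (shSQLE over shControl) with its SE for the 55 tested genes of the 6 lists, each point a gene; filled, named points are called at an adjusted p under 0.05. The 8 genes that fell lie between -1.73 and -0.55, and PLAU lies at 0.81.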

How the data were processed

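The authors extracted poly(A) RNA from U2OS cells, and, per the labels' processing notes and the deposited table, fastp 0.20.0, STAR 2.7.9a, featureCounts 2.0 and hg38 were used; the deposited table holds unnormalized read counts for each gene. Strand use and the annotation release are not given in the sources used here. Libraries were grouped by their labels (3 shSQLE, 3 shControl). With R 4.3.3, genes were filtered (filterByExpr, minimum count 10), normalized by TMM and tested with edgeR 4.0.16 (quasi-likelihood, condition only, Benjamini-Hochberg over 12450 genes). Symbols, lengths and GC content came from GENCODE v44, for 12447 of these. The SE is the log2 fold change divided by the square root of F. The fits were checked on computer-generated counts. Alternatives were DESeq2 1.42.0, library size only, RLE size factors, 2 other filters, a replicate block, GC content and length offsets (mgcv 1.9.3), each library left out, and other lengths; the union of exons was added after seeing the data. The chains and lists were chosen with earlier results of these data known. Named are the chains, SQLE, called list genes, or the 2 smallest p per list where fewer than 2 were called, and the 3 most alike genes for the alpha, beta and gamma chain highest per length over all libraries. Chosen after their values were seen were ITGB1, ITGA2, ITGA3, ITGA6, DAG1, NID1, HSPG2, AGRN, COL4A1, COL4A2, COL4A5, COL4A6 and single marker genes.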

Additional observations from a re-analysis of the deposited data

How the results depend on the processing

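LAMA2 and LAMA4 had the lowest raw counts of the chains, 11 to 25 per shSQLE library. Of the chains' calls, LAMA4 held in all 13 alternative fits. LAMA3 was lost without any one of shSQLE 1, 2 or 3, shControl 2 or shControl 3, and LAMA5 in the same fits and under the replicate block. The number of chains called lower was 3 in all fits with all 6 libraries except the replicate block (2) and the offsets for GC content and length (6), and ranged from 1 to 6 when 1 library was left out, with 6 without shControl replicate 1. All 9 chains stayed below 0 except that LAMB1, at -0.06, ranged from -0.21 to 0.051 when 1 library was left out, with 0.051 without shControl replicate 3. Over all genes, 354 lower and 46 higher calls became 568 and 162 with DESeq2, 1296 and 889 with the offsets, and ranged from 101 to 2300 lower and from 4 to 1964 higher when 1 library was left out, highest without shControl replicate 1. Among the list genes, 8 lower and 1 higher became 13 lower with DESeq2, 18 lower and 4 higher with the offsets, and 1 to 22 lower and 1 to 9 higher when 1 library was left out. The shares of all genes were 4.56% lower with DESeq2, and 10.4% lower and 7.14% higher with the offsets. The replicate block gave 362 lower and 34 higher calls; the libraries share only a number, since same-numbered deviations from the group means correlated at 0.138, -0.433 and 0.543. The log2 fold change of SQLE stayed between -3.12 and -2.87. The ratio of summed alpha to gamma 1 in shControl and shSQLE became 0.585 and 0.439 with coding lengths and 0.676 and 0.507 with the union of all exons; with 1 library left out it ranged from 0.838 to 0.953 in shControl and from 0.673 to 0.702 in shSQLE. The cause of these shifts was not tested.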
